A study of Rattus norvegicus with 12 samples.

Results

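The histone deacetylases examined here were the probes that the array's annotation assigns to *Hdac1*, *Hdac2*, *Hdac3*, *Hdac4*, *Hdac5*, *Hdac6*, *Hdac7*, *Hdac8*, *Hdac9* or *Hdac11*, and 11 of the 22523 probes on the array met this rule. They stand for 9 of the 10 genes, of 21407 gene symbols on the array, since no probe carried the symbol *Hdac9*, and *Hdac1* had 3 probes. Total RNA of the whole hippocampus was measured on Illumina RatRef-12 BeadChips, with 1 array per rat. The rats were males of generation F15, all at postnatal day 14, from a pair of lines selectively bred for how much they move about in an unfamiliar place. There were 6 bred High Responder (bHR) rats and 6 bred Low Responder (bLR) rats, with no treatment or transgene named for either line, so a difference is one between bred lines and cannot be tied to a single allele. Whether rats shared a litter is not stated, and 6 rats per line limit the precision. In a bulk sample, a difference in the number of cells of a type and a difference in RNA per cell cannot be told apart.

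*Hdac5* was chosen by its difference between the lines: it ranked 21st of the 22523 probes by its p in the limma comparison of the lines, next after the 20 probes called at an adjusted p of 0.05. The other genes were added as its family. The bHR against bLR differences of these probes are therefore given as a description. Counts of limma calls among them are printed beside those of all probes and are not read as a test.

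Histone deacetylases remove acetyl groups from lysines of histones and other proteins, which in chromatin generally goes with lower transcription. Class I enzymes (*Hdac1*, *Hdac2*, *Hdac3* and *Hdac8*) act mainly in the nucleus, the first 3 of them within corepressor complexes. Class IIa proteins (*Hdac4*, *Hdac5*, *Hdac7* and *Hdac9*) have little catalytic activity of their own, bind MEF2 transcription factors, and leave the nucleus when calcium-dependent kinases phosphorylate them and 14-3-3 proteins hold them. In mice, *Hdac2* and *Hdac3* restrain hippocampal memory formation, loss of neuronal *Hdac4* impairs it, and hippocampal *Hdac5* takes part in responses to chronic stress and antidepressants.

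The RefSeq promoter of *Hdac5* is shown first, as the 250 bases before the gene's start (GRCr8, chr10:87688055-87688304, minus strand, written 5′ to 3′ along the gene). Capitals mark the letters that fit the MEF2 consensus, found on both strands because the pattern is its own reverse complement.
*Hdac5*: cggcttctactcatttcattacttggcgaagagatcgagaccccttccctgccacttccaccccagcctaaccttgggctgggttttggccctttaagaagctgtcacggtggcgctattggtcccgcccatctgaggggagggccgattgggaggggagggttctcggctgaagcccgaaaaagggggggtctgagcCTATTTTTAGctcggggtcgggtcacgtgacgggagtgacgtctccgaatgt
The match lies 52 to 43 bases before the start. The same pattern occurred in 991 of 33469 promoter windows of this length (2.96%), and in 1 of the 9 histone deacetylase genes with such a window, *Hdac5*. These 9 include *Hdac9* and leave out *Hdac11*, for which no window was at hand. A match of letters is a description and does not show binding. Its relation to the *Hdac5* difference between the lines was not tested.

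Arrays of the lines differed in brightness, and this touches every difference below. The 3 dimmest arrays (mean raw signal 453 to 488 units) were bHR rats 27, 29 and 39, and the other 9 read 750 to 1038 units. Mean log2 raw signal averaged 7.46 in bHR and 7.73 in bLR (difference -0.27, exact permutation test over all assignments of the 12 rats, two-sided p = 0.035). Values below are log2 signals after quantile normalisation, which gives all arrays the same distribution, unless another scale is named. Of 13 measured markers of hippocampal pyramidal and granule neurons, 12 lay above the median of all probes (log2 6.66), all but *Dsp*. Most markers of cells and tissues around the hippocampus did so too, with 6 of 8 for thalamus and habenula, 7 of 7 for ependyma, 3 of 3 for blood and 6 of 7 for meninges and vessels, so these counts do not set the hippocampus apart from adjoining tissue. The neuron markers' summed linear signal ran from 23482 to 41367 units in bHR and from 27591 to 29850 units in bLR. Choroid plexus, which lies against the hippocampus, was present unevenly: its 11 markers, all above the median of all probes, summed to 4629 to 56158 units in bHR and 17061 to 51459 units in bLR. The 6 oligodendrocyte markers summed to 14943 to 19983 units in bHR and 13375 to 16911 units in bLR, with 5 bHR rats above all bLR rats, and the thalamus and habenula markers to 4143 to 5275 units in bHR and 3967 to 4890 units in bLR. Of these markers, and of those of astrocytes, microglia, ependyma, blood, and meninges and vessels, 66 genes in all, 0 were called between the lines by limma, as were 0.0888% of all probes. An unadjusted p under 0.05 was found for 7 of the 66, a larger share than the 6.02% of all probes, and 3 of the 7 were oligodendrocyte markers (2 higher and 1 lower in bHR).

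Among the class IIa genes, *Hdac5* was 1.47-fold higher in bHR, with a log2 signal of 8.94 ± 0.19 in bHR and 8.38 ± 0.20 in bLR (SD, n = 6 each) and +0.56 ± 0.10 (SE) for bHR minus bLR. In bHR rats 27, 29, 33, 39, 41 and 47 the signal was 9.07, 8.61, 8.89, 9.11, 9.08 and 8.90, and in bLR rats 26, 28, 30, 38, 42 and 46 it was 8.41, 8.38, 8.17, 8.75, 8.33 and 8.27. The lines overlapped through a single pair, since bLR rat 38 read higher than bHR rat 29, and 5 bHR rats lay above all bLR rats. A difference at least this far from 0, in either direction, was found at 77 of all probes (0.342%).

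*Hdac4*, which in neurons is exported from the nucleus by synaptic activity, lay the other way. It averaged 8.79 ± 0.17 in bHR and 8.98 ± 0.17 in bLR (SD, n = 6 each), or -0.20 ± 0.09 (SE) between them. The bHR rats read 8.47, 8.83, 8.74, 8.89, 8.95 and 8.84, and the bLR rats 8.91, 8.89, 9.25, 9.08, 9.02 and 8.75, in the same order of rats as for *Hdac5*. The lines overlapped, with bLR rat 46 lower than 4 of the bHR rats. *Hdac7*, a class IIa gene best known from thymocytes and blood vessels, averaged 7.18 ± 0.10 in bHR and 7.25 ± 0.17 in bLR, with -0.07 ± 0.08 (SE) between them, and its bHR values (7.05 to 7.33) lay within the bLR range (6.95 to 7.40). *Hdac9* had no probe, so its signal was not analysed here.

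Class I genes overlapped between the lines at each probe. *Hdac2* had the widest spread between rats of a line of the 11 probes, with a pooled SD of 0.27 where the median of 885 probes of like signal was 0.17. Its values were 9.61, 9.07, 9.02, 9.28, 8.95 and 9.03 in the bHR rats and 9.07, 9.10, 8.40, 9.17, 8.80 and 9.03 in the bLR rats, for a difference of +0.23 ± 0.13 (SE). The 2 bHR rats above all bLR rats, 27 and 39, were both on dim arrays, and within the 9 brighter arrays the difference was +0.07 ± 0.14. Without bLR rat 30 it was +0.13 on all other arrays.

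*Hdac3*, the catalytic subunit of the NCoR complexes, averaged 8.94 ± 0.22 in bHR and 8.88 ± 0.20 in bLR (SD, n = 6 each), and the lines differed by +0.07 ± 0.11 (SE). Its lowest bHR rat was 47, at 8.52, and its lowest bLR rat was 30, at 8.56. The difference was +0.15 without the first and +0.0032 without the second, and -0.05 ± 0.13 within the 9 brighter arrays. *Hdac8*, which also deacetylates the cohesin subunit SMC3, averaged 8.80 ± 0.13 in bHR and 8.74 ± 0.17 in bLR, which is +0.06 ± 0.08 (SE) for bHR minus bLR. Here bHR rat 47 and bLR rat 30 were at or near the top of their lines, at 9.04 and 8.92. The *Hdac8* difference was +0.02 without bHR rat 47, +0.11 without bLR rat 42 and +0.16 ± 0.10 within the 9 brighter arrays.

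The 3 *Hdac1* probes did not give the same answer. The brightest differed by -0.07 ± 0.07 (SE; 7.24 in bHR and 7.32 in bLR), the second by -0.10 ± 0.06 (6.44 in bHR and 6.55 in bLR) and the dimmest by +0.15 ± 0.06 (6.36 in bHR and 6.22 in bLR). In bHR as in bLR, the other 2 *Hdac1* probes were dimmer than the median probe. RefSeq lists 18 *Hdac1* pseudogenes and a protein-coding copy, *Hdac1l*, in the rat, so which transcripts each probe reads is uncertain.

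The class IIb gene *Hdac6*, a cytoplasmic deacetylase of tubulin, was below the median of all probes as well, at 6.24 ± 0.10 in bHR and 6.13 ± 0.07 in bLR (SD, n = 6 each), and bHR minus bLR was +0.11 ± 0.06 (SE). *Hdac11*, the class IV enzyme, which is strongly expressed in brain, gave 12.70 ± 0.14 in bHR and 12.61 ± 0.11 in bLR, or +0.08 ± 0.07 (SE) for bHR minus bLR. Both overlapped between the lines.

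**Figure D1:**
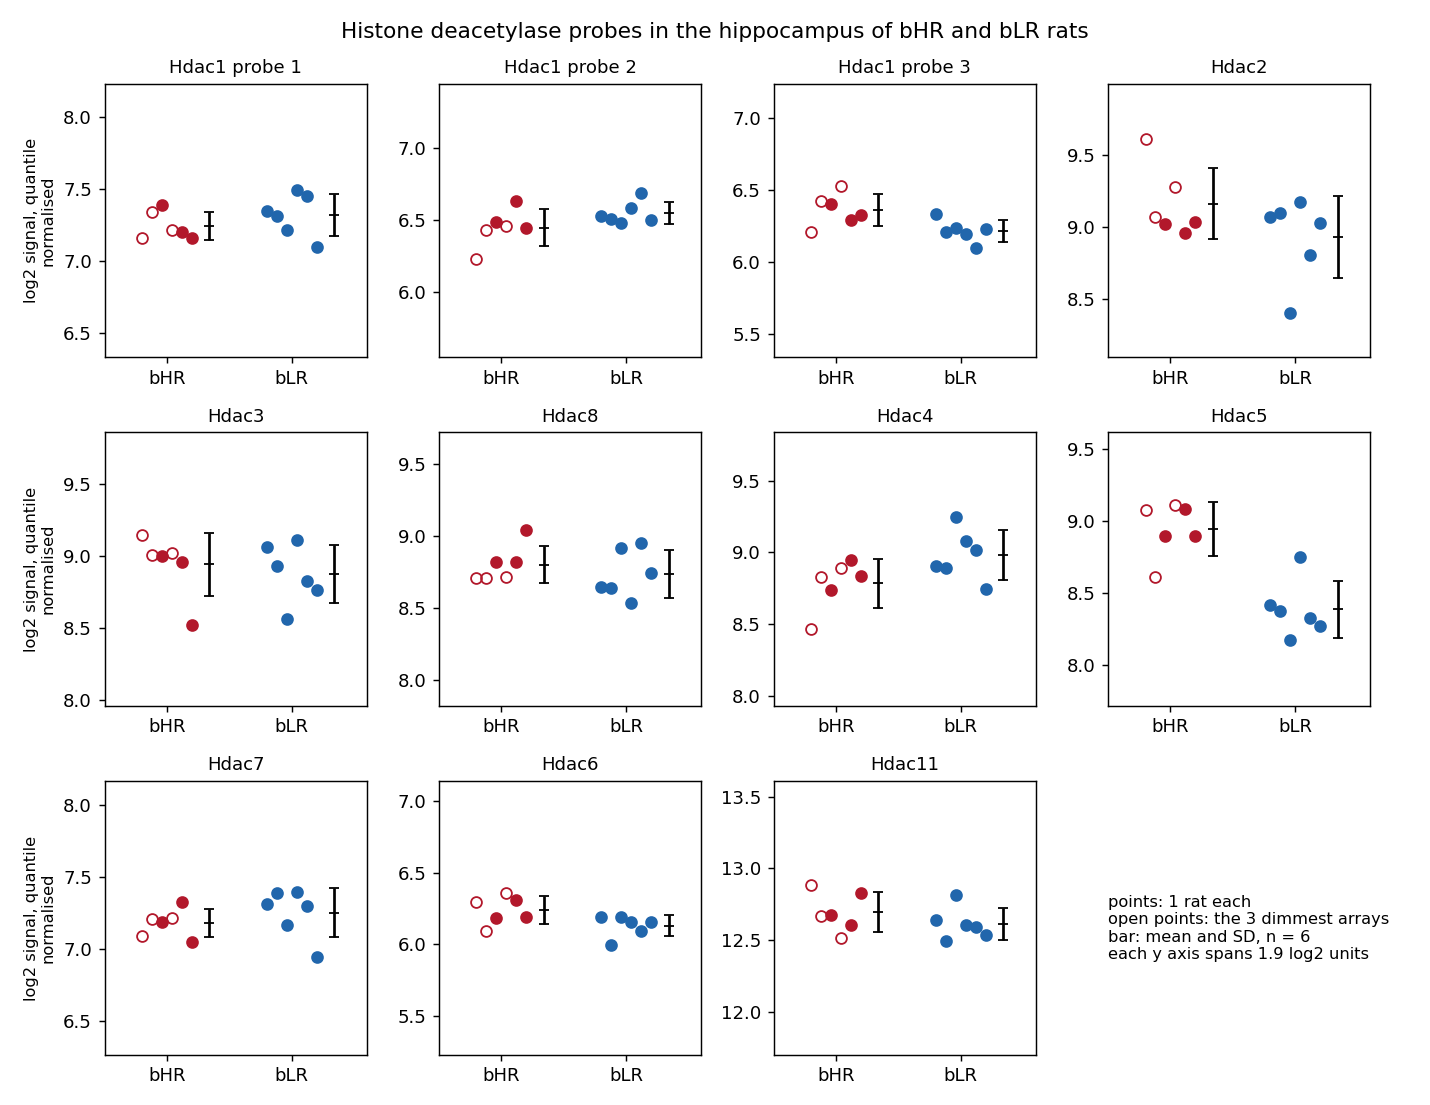
Log2 signal after quantile normalisation (y axis) of the 11 histone deacetylase probes in each rat, by line (x axis), with mean and SD at the right of each group (n = 6) and open points for the 3 dimmest arrays, all bHR. Each panel spans the same number of log2 units. *Hdac5*, which was chosen for its difference, shows the widest gap between lines, with 5 bHR rats above all bLR rats.

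In all, 7 of the 11 probes had a positive difference, against 50.9% of all probes. Of the 11, 0 were called by limma at an adjusted p of 0.05, as were 0.0888% of all probes, and 3 (*Hdac5*, *Hdac4* and the dimmest *Hdac1* probe) had an unadjusted p under 0.05, as had 6.02% of all probes. At an adjusted p of 0.10 limma called 1 of the 11, *Hdac5*, which was chosen for its rank in this same comparison, and 0.133% of all probes. At 0 of the 11 the rats of the lines did not overlap, as was the case for 0.391% of all probes. The median difference over the 9 genes, each by its brightest probe, was +0.07, beside 0.00 for all probes. Since the family was chosen with the *Hdac5* result known, nothing is read from these counts. Leaving out 1 rat took *Hdac4* to between -0.24 and -0.13, *Hdac7* to between -0.13 and -0.04, *Hdac11* to between +0.04 and +0.12, the brightest *Hdac1* probe to between -0.12 and -0.04 and the second to between -0.14 and -0.06.

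The scaling between arrays moved most of these differences. With median centring of the arrays in place of quantile normalisation, *Hdac5* stood at +0.32 ± 0.14 (SE) and *Hdac4* at -0.45 ± 0.13, with the median of all probes at -0.02. Without any scaling they stood at +0.12 ± 0.20 and -0.65 ± 0.19, and the median over all probes stood at -0.22. *Hdac2*, *Hdac3*, *Hdac8* and *Hdac11* were negative on both of these scales, at -0.04, -0.20, -0.18 and -0.24 with median centring and -0.24, -0.40, -0.38 and -0.44 without scaling, and *Hdac6* was negative without scaling (-0.01). The 5 lists of related genes taken up below, most of whose genes lay above the median signal, had medians of -0.29 to -0.17 with median centring. Without scaling their medians were -0.49 to -0.37. Values below 0 on these scales were thus not particular to the deacetylases, though the lists were not matched to them in signal. The signs of *Hdac5*, *Hdac4*, *Hdac7* and each *Hdac1* probe were the same on the 3 scales.

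The *Hdac5* difference was as large without the dim arrays: within the 9 brighter arrays (3 bHR and 6 bLR) it was +0.57 ± 0.11 (SE), beside -0.14 ± 0.10 for *Hdac4*. On those arrays the raw, unscaled *Hdac5* signal was 559, 591 and 493 units in bHR rats 33, 41 and 47, and 474, 345, 339, 513, 352 and 343 units in the bLR rats. Rats 33 and 41 exceeded all bLR rats and rat 47 exceeded all but rat 38. On the dim bHR arrays it read 381, 248 and 364 units. Choroid plexus markers are set beside *Hdac5* as a description. In bHR, rats 27 and 41, with the lowest marker sums (4629 and 4665 units), read 9.07 and 9.08. Rats 33, 39 and 47, with the highest (54631 to 56158 units), read 8.89, 9.11 and 8.90. Rat 29, between them (19955 units), read 8.61. In bLR, rat 26, with the lowest sum (17061 units), read 8.41, and rat 42, with the highest (51459 units), read 8.33. Oligodendrocyte markers resembled *Hdac5* in that 5 bHR rats exceeded all bLR rats. Their one exception was bHR rat 41, which had the lowest sum of its line (14943 units) with an *Hdac5* signal of 9.08, and bLR rat 30 had the highest sum of its line (16911 units) with the lowest *Hdac5* signal, 8.17. The part of choroid plexus or oligodendrocyte content in the *Hdac5* difference was not tested.

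**Figure D2:**
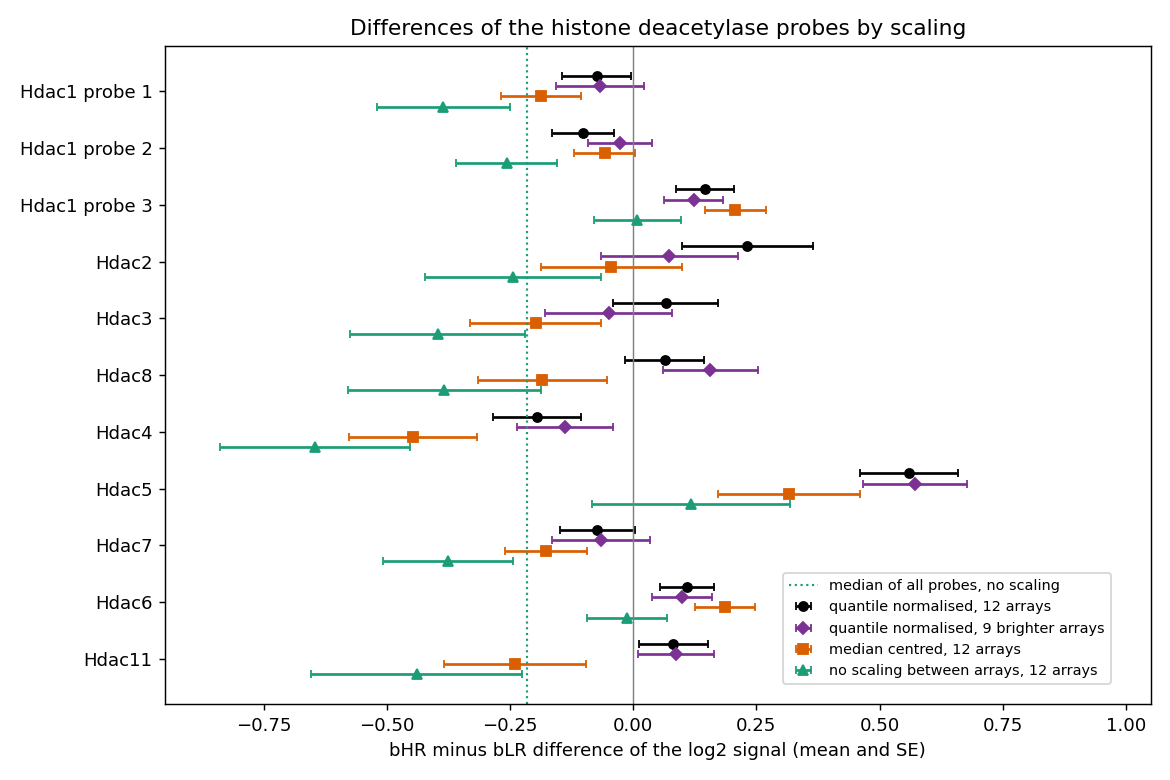
Difference of log2 signal, bHR minus bLR, with its SE (x axis) for each histone deacetylase probe (y axis) under quantile normalisation on 12 and on the 9 brighter arrays, median centring and no scaling. *Hdac5* stays to the right of 0 (+0.12 to +0.57) and *Hdac4* to the left (-0.65 to -0.14), while *Hdac2*, *Hdac3*, *Hdac8* and *Hdac11* change side with the scaling.

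Differences between a pair of probes on the same array were taken next, since centring the arrays cannot change them, while quantile normalisation can. Each probe was first centred on its mean over the 12 rats, since levels of different probes are not comparable. The choice of pairs was made after the values were seen. *Hdac5* minus *Hdac4* averaged +0.38 ± 0.27 in bHR and -0.38 ± 0.26 in bLR (SD, n = 6 each), so the lines differed by +0.76 ± 0.15 (SE). The values were +0.82, 0.00, +0.37, +0.44, +0.35 and +0.28 in the bHR rats and -0.27, -0.30, -0.86, -0.11, -0.47 and -0.26 in the bLR rats, so every bHR rat lay above every bLR rat.

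Without scaling the *Hdac5* to *Hdac4* difference was also +0.76 ± 0.14 (SE), and the lines were again apart, with 0.03 for the lowest bHR rat and -0.12 for the highest bLR rat. Separation of this kind is not rare for *Hdac5*: its difference from another probe kept the lines apart for 16.3% of all other probes after quantile normalisation and for 9.49% without scaling. *Hdac5* minus *Hdac7* gave +0.63 ± 0.11 after quantile normalisation, with the lines apart, and +0.49 ± 0.13 without scaling, where bHR rat 29 (-0.25) overlapped the bLR rats. Such a ratio describes how unequally the probes differed between the lines, not which of them differed. Because *Hdac5* was chosen for its difference, an unequal pair was likely from the outset.

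Averaged over its genes, class IIa set against class I overlapped between the lines. The mean of the 3 measured class IIa genes minus that of the 4 class I genes differed by +0.03 ± 0.08 (SE) between the lines, with +0.01 ± 0.14 in bHR and -0.01 ± 0.12 in bLR (SD, n = 6 each). Within class IIa the parts offset each other: with *Hdac5* left out the difference was -0.21 ± 0.10, and -0.16 ± 0.09 without scaling. Since *Hdac5* was chosen for its difference, leaving it out was bound to lower this value. *Hdac5* alone minus the mean of class I differed by +0.49 ± 0.09, with bHR rat 29 (-0.08) below bLR rat 38 (0.0078). The class IIa minus class I difference was +0.05 ± 0.07 without scaling.

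**Figure D3:**
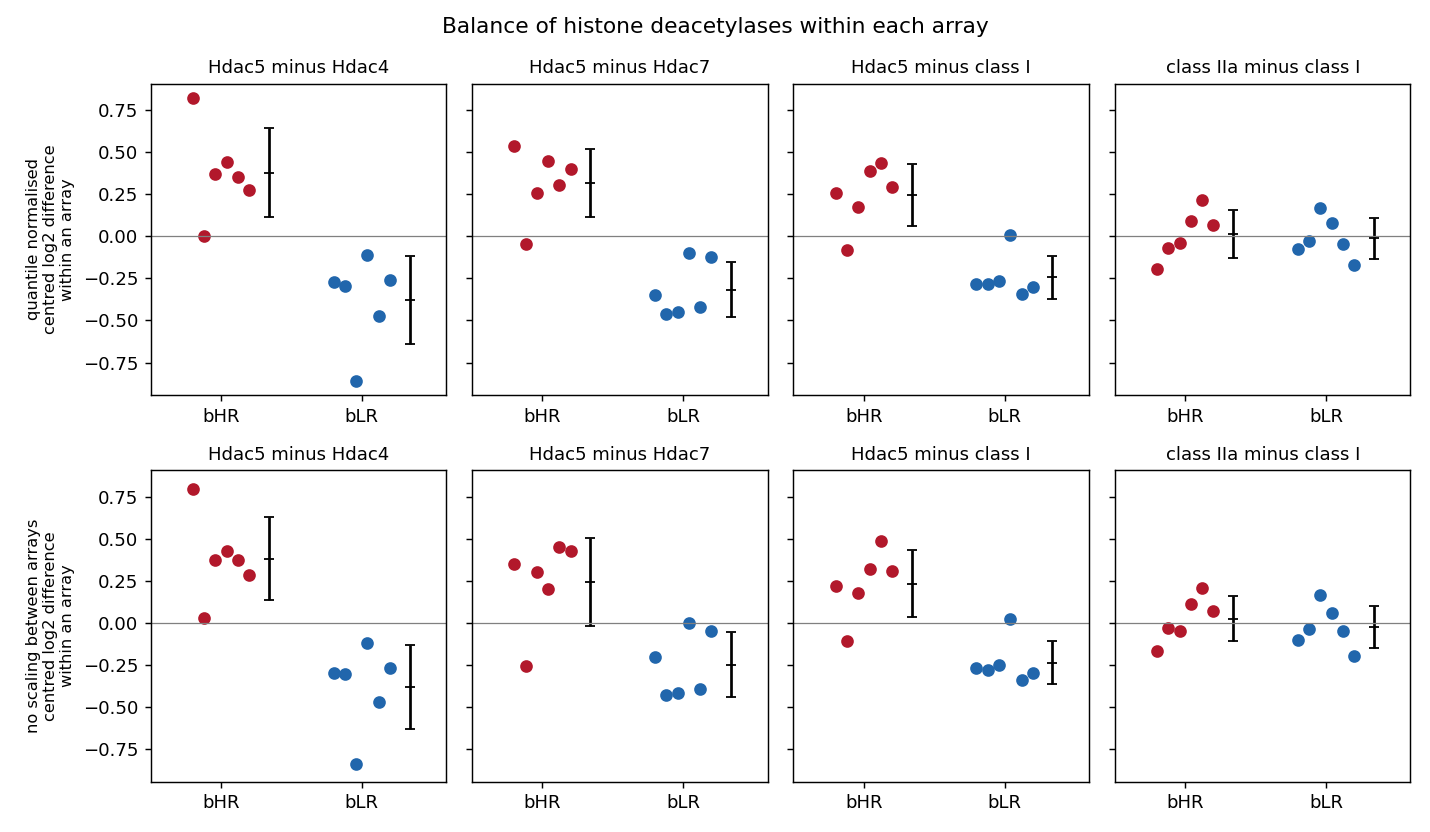
Centred log2 differences within an array (y axis) between *Hdac5* and *Hdac4*, *Hdac5* and *Hdac7*, *Hdac5* and class I, and class IIa and class I, for each rat by line (x axis), with mean and SD (n = 6). The upper row is quantile normalised and the lower row unscaled, and in both the *Hdac5* minus *Hdac4* values of bHR lie above those of bLR while class IIa minus class I overlaps.

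How the genes varied together among rats of a line does not rest on the line difference, so it was tested, on values with the line mean removed. In 36 pairs of the 9 genes, 19 correlations were positive and the median r was 0.04. The pair with the strongest r was *Hdac3* and *Hdac8*, which ran in opposite directions over the 12 rats (r = -0.86, adjusted p = 0.081, and rho = -0.81, adjusted p = 0.061, permutation test within lines with 100000 resamples, adjusted over the 36 pairs; unadjusted p of 0.0023 and 0.0034). It was -0.73 without the 2 rats farthest from the *Hdac3* median, bHR 47 and bLR 30, and -0.84 within the 9 brighter arrays.

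*Hdac2* and *Hdac8*, the pair with the strongest rho, ran opposite too (r = -0.71, adjusted permutation p = 0.16, and rho = -0.83, adjusted permutation p = 0.039), with r at -0.70 without bLR 30 and bHR 27, the rats farthest from the *Hdac2* median, and at -0.73 on the brighter arrays. This was the only one of the 36 pairs to pass after adjustment, by rho, and 0 passed by r, where 5 had an unadjusted permutation p under 0.05. Adjustment was made for r and for rho separately, not over both measures together, so this pass is a weak one. *Hdac2* and *Hdac3* ran together (r = 0.69, adjusted permutation p = 0.16, and rho = 0.73, adjusted permutation p = 0.14), with r at 0.50 without the same 2 rats. For *Hdac5* and *Hdac4* r was -0.05 and rho 0.12 (adjusted permutation p of 0.93 and 0.90), so within a line no opposite course of the pair was detectable with 12 rats. The r of *Hdac5* with *Hdac2* was 0.57 and with *Hdac3* 0.52 (rho = 0.50 and 0.59, adjusted permutation p of 0.35 and 0.43 for r and 0.44 and 0.32 for rho).

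Across 11214 probes above the median signal, the 5 genes whose deviations from the line means followed *Hdac5* most closely over the 12 rats were *Slit3* (r = 0.89), LOC499978 (0.87), *Mterf2* (0.85), *Ghrl* (0.84) and *Haus7* (0.83), given as a description. Within the 9 brighter arrays these r were 0.89, 0.89, 0.81, 0.85 and 0.82. Their own line differences were small beside that of *Hdac5*, at -0.05, -0.05, +0.07, 0.00 and +0.12. In all, 9 probes reached an r of 0.8 and 3 an r of -0.8 or less. Whether these counts exceed those of unrelated probes was not tested.

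Genes next to *Hdac5* in the GRCr8 annotation all had differences closer to 0 than its own. Only 0.342% of all probes lay at least as far from 0 as *Hdac5*, which was chosen for its difference, so nothing is read from this. Of the 5 nearest measured protein-coding genes on each side, 3 were positive and 7 negative with a median of -0.04, and 0 of the 10 were called by limma, as were 0.0888% of all probes, with 1 (*Tmub2*, -0.15 ± 0.05) of the 10 at an unadjusted p under 0.05, as were 6.02% of all probes. The closest on either side, *G6pc3*, a glucose-6-phosphatase, and *Hrob*, a factor of homologous recombination, differed by -0.03 ± 0.09 (SE) and -0.08 ± 0.06. The range ran from -0.24 ± 0.15 for *Lsm12* to +0.04 ± 0.06 for *Ubtf*, the transcription factor of ribosomal RNA genes.

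Genes that work with histone deacetylases were taken as 5 lists, of which 83 of 98 genes were measured. By limma 0 of the 83 were called at an adjusted p of 0.05, as were 0.0888% of all probes, and 4 had an unadjusted p under 0.05 (4.82%, against 6.02% of all probes). The 7 sirtuins, the NAD-dependent class III deacetylases, had 4 positive and 3 negative differences and a median of +0.02, with *Sirt7* at -0.11 ± 0.06 (SE) and *Sirt5* at +0.05 ± 0.06, which was -0.29 with median centring, -0.49 without scaling and -0.01 on the 9 brighter arrays. The 11 measured acetyltransferases, which add the groups that deacetylases remove, had a median of 0.00, with *Kat2a* (GCN5) at -0.15 ± 0.06 and *Kat6a* at -0.08 ± 0.06. The 15 measured bromodomain genes, most of them readers of acetylated lysine, also had a median of 0.00, with *Baz1b* at -0.08 ± 0.06 (SE).

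Among 25 measured partners of corepressor complexes, 13 were positive and 12 negative, with a median of 0.00. *Gatad2b*, a subunit of the NuRD complex that holds *Hdac1* and *Hdac2*, averaged 7.52 ± 0.15 in bHR and 7.75 ± 0.07 in bLR (SD, n = 6 each), which is -0.23 ± 0.06 for bHR minus bLR (SE; limma adjusted p = 0.51). Its bHR rats read 7.26, 7.59, 7.64, 7.56, 7.63 and 7.43 and its bLR rats 7.71, 7.67, 7.83, 7.82, 7.74 and 7.70. The highest bHR rat was thus below the lowest bLR rat, as the lines did not overlap for 0.391% of all probes. *Sin3a*, the scaffold of the SIN3 complex, averaged 8.69 ± 0.15 in bHR and 8.42 ± 0.21 in bLR. The lines differed by +0.27 ± 0.10 (SE; limma adjusted p = 0.72), a value that was +0.02 with median centring and -0.18 without scaling, and the lines overlapped.

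The 25 measured MEF2 factors, export kinases, 14-3-3 proteins and ankyrin-repeat partners of class IIa proteins had 10 positive and 15 negative differences and a median of -0.04. *Prkd1*, a protein kinase that phosphorylates class IIa proteins for export, was at -0.15 ± 0.06 (SE; limma adjusted p = 0.80) and *Camk2d*, a calcium/calmodulin-dependent kinase, at +0.14 ± 0.07 (limma adjusted p = 0.83), a value that was +0.01 with median centring and -0.19 without scaling. The range ran from -0.16 for *Camk2g*, a kinase of the same family, to +0.20 for *Rfxank*, an ankyrin-repeat protein. Without scaling between arrays the medians of the 5 lists lay between -0.49 and -0.37, where that of all probes was -0.22. The lists were not matched to all probes in signal, so nothing is read from this gap. By list, from 12 of 15 (bromodomain genes) to 7 of 7 (sirtuins) lay above the median signal, as did 11451 of all 22523 probes.

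**Figure D4:**
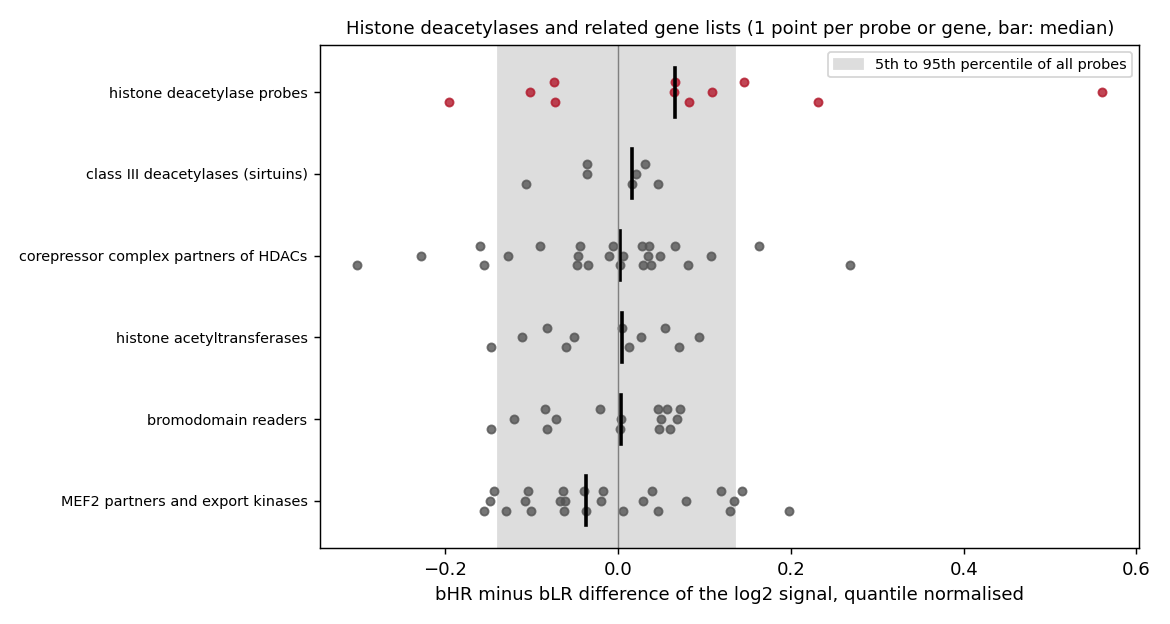
Difference of quantile-normalised log2 signal, bHR minus bLR (x axis), for the histone deacetylase probes and the genes of the 5 related lists (y axis), with each median as a bar and the 5th to 95th percentile of all probes (-0.14 to +0.13) shaded. *Hdac5*, which was chosen for its difference, lies at +0.56, farther from 0 than any other point. The list medians lie between -0.04 and +0.02.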

How the data were processed

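The 12 RatRef-12 arrays hold hippocampal RNA of 6 bHR and 6 bLR rats, 1 rat each. Per the labels and design text, the authors extracted average bead signals with limma 3.28.21, and took log2 and quantile normalised them with preprocessCore 1.34.0, keeping all arrays. The deposited intensity table holds linear signals of 22523 probes, not normalised between arrays, and the authors' own log2 values were deposited beside it. No source used here describes a background correction, and neither detection p-values nor probe sequences were used here. Quantile normalisation of the log2 intensities was repeated and differed from the authors' table by a median of 0.00037 and at most 0.254. Lines were compared probe by probe with limma 3.58.1 (lmFit, eBayes; R 4.3.3), with line as the only factor and Benjamini-Hochberg adjustment over all probes, which was tested on simulated data. Each rat is a separate animal, and the rat numbers do not pair them.

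Gene names of the lists came from the deposited symbols, updated through RefSeq's GRCr8 table (16891 probes matched), and promoter sequence is RefSeq's for that build. Where a gene had several probes, lists used the brightest. *Camk2a* stands in both the kinase list and the neuron markers. Named were all histone deacetylases, the 2 genes of each list with the lowest p, and the 5 genes most like *Hdac5*; 1 gene so named is not reported here. The members, lists and tests were chosen with earlier results of these data known. Alternatives were other scalings, normexp with an offset of 50, the authors' values, a filter on dim probes, brightness terms, array weights, a variance trend, an adjusted p of 0.10, all probes of a gene, and leaving out each rat. *Hdac5* minus *Hdac4*, the pairs and the neighbouring genes were added after seeing the data.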

Additional observations from a re-analysis of the deposited data

Results flagged for a closer look

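Of 62 groups of 6 rats examined, 3 held a rat set apart from the other 5 by more than Dixon's critical share of the line's range, and chance gives about 1 in 20. bHR rat 47 was the lowest of its line for *Hdac3*, at 8.52 where the next rat read 8.96, and the highest for *Hdac8*, at 9.04 where the next read 8.82. bLR rat 38 was the highest of its line for *Hdac5* minus the class I mean, at 0.0078 where the next read -0.27.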

How the results depend on the processing

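The *Hdac5* difference (+0.56) was positive under all 20 alternatives and moved by more than the spread between rats under 2, to +0.32 with median centring and +0.12 without scaling. Leaving out 1 rat gave +0.52 to +0.63. The median of the histone deacetylase genes (+0.07) became -0.18 with median centring and -0.38 without scaling, and ran from +0.043 to +0.10 without 1 rat. On the same scales the medians of the 5 related lists were -0.29 to -0.17 and -0.49 to -0.37. The class IIa minus class I difference (+0.03) stayed within the spread between rats under all 20 alternatives. It ran from -0.015 without bHR rat 41 to +0.095 with brightness as a block or on the 9 brighter arrays (-0.015 to +0.067 without 1 rat). *Hdac5* minus *Hdac4* (+0.76) ran from +0.66 to +0.83 over 19 alternatives, both ends reached by leaving out a rat. Limma called 20 probes in all, 6 with median centring, 4 without scaling, 6 with brightness as a block, 4 with mean log2 raw signal as a covariate, 28 with array weights, 28 with a variance trend and robust estimation, 30 at an adjusted p of 0.10, 30 among probes above the median signal, and 9 (without bLR rat 28) to 24 (without bHR rat 27) when a rat was left out. Leaving out bHR rat 29, 39 or 47 gave 12, 10 and 12, and bLR rat 26 or 30 gave 13 each. The related lists had 0 calls under all 23 alternatives. Why these values changed was not tested. Rats were left out without repeating the normalisation. No paired analysis was possible because the lines share no replicate number. The signal over background limits *Hdac6*, 2 *Hdac1* probes, *Hrob* and *Baz1b*, which lie below the median of all probes.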
